A study of Mus musculus with 2 samples.

Results

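The AP-1 genes described here are the 9 listed members Fos, Fosb, Fosl1, Fosl2, Jun, Junb, Jund, Atf3 and Maff, found by their Entrez identifiers among 17216 genes listed in either of 2 RNA-seq libraries. All 9 were listed in both libraries, and 8 of them averaged 1 FPKM or more (FPKM is fragments scaled to transcript length and to library depth). Genes at or above that average are called measured here, and Fosl1 was the only member below it. The libraries came from bone marrow cells of C57BL/6 mice, sorted by flow cytometry as long-term haematopoietic stem cells by the absence of lineage markers and CD48 and the presence of Sca-1, c-Kit and CD150. There was 1 library of wild type littermates and 1 of Ccp3-/- mice, which lack the cytosolic carboxypeptidase CCP3, an enzyme that trims glutamate residues from proteins. Age, sex, the number of animals in a library and the deleted part of the gene were not given in the sources used here.

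AP-1 is a family of transcription factors that bind DNA as pairs of proteins held together by a leucine zipper. Fos proteins cannot pair with themselves and bind with a Jun partner, while Jun proteins pair with Fos proteins, with each other and with relatives such as ATF3; MAFF, a small Maf protein, has the zipper but no activation domain. Most of these genes are immediate early genes: growth factors, cytokines, stress and the dissociation of tissue switch them on within minutes through the ERK, JNK and p38 kinases, and their mRNAs are short-lived. In blood formation JunB is known as a brake on the expansion of stem and myeloid cells, and Jun and Fos take part in monocyte differentiation.

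With 1 library per genotype there was no replicate check and no test between genotypes, so each value below compares these libraries. In bulk RNA such as this, fewer cells of a type and less RNA per cell cannot be told apart. Agbl3, which encodes CCP3, gave 1.11 FPKM in wild type and 0.66 FPKM in Ccp3-/- cells, a ratio of 0.595 (95% counting interval 0.288 to 1.19). The deleted part is not known, so this value does not check the genotype, and the Ccp3-/- library is called the knockout-labelled library. Depth, read from the spacing of low FPKM values, was about 15.3 M reads in the wild type and 14.3 M in the knockout-labelled library. Counting intervals rest on reads estimated in that way and cover counting error only. Cd48, whose protein the sort excluded, was present at 136 and 114 FPKM. Slamf1, the gene of CD150, was at 2.14 and 3.40 FPKM. Ly6a, the gene of Sca-1, was at 49.1 and 28.4 FPKM, 1.73-fold higher in the wild type. Kit, the gene of c-Kit, was at 59.7 and 56.5 FPKM. The gate was set on surface protein, and no RNA level for such cells was at hand to compare.

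The DNA before the starts of the members Fos, Fosb, Jun and Junb is shown first. They were chosen because their levels below were all lower in the knockout-labelled library. Each sequence is the 130 bases before the annotated start, read 5′ to 3′ on the gene's own strand, from RefSeq on GRCm38.p6. Capitals mark the motifs TGACG and TGACNTCA (a cyclic AMP response element half-site and a full or near-full element, bound by CREB, ATF and Jun-ATF pairs) and TATAAA (the TATA box).
Fos promoter, chr12:85473760-85473889, plus strand: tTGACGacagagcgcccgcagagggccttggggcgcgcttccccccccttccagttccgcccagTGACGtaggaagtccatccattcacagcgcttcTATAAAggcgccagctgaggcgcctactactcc
Fosb promoter, chr7:19310046-19310175, minus strand: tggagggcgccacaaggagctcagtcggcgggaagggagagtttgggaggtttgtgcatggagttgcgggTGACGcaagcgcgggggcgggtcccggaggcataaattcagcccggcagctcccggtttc
Jun promoter, chr4:95052223-95052352, minus strand: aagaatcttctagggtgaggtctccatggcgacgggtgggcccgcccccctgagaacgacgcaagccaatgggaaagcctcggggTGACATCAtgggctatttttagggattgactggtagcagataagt
Junb promoter, chr8:84978749-84978878, minus strand: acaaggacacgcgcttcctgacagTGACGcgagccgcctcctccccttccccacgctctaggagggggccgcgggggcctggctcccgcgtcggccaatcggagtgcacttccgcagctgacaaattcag
Fos and Fosb, on different chromosomes, both carried TGACG at nearly the same distance from the start, at −66 to −62 and at −60 to −56. Jun carried TGACATCA at −45 to −38, and Junb carried TGACG at −106 to −102. Fos had a second TGACG at −129 and a TATA box at −33.

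Promoters were matched for 8 members, 10 windows in all since Maff has 3 starts, each running from 250 bases before the start to 50 after it. A member was counted if any of its windows matched, while the background shares are of single windows, so Maff had 3 windows to match. The background windows were not limited to measured genes, whereas all 8 members here were measured. On either strand, TGACG was found in 5 of the 8 (Fos, Fosb, Junb, Atf3 and Maff), against 20.8% of 32851 promoters of the same length. TGACNTCA was found in Jun and Maff, against 8.83% of promoters, and the Maff element TGACGTCA at −29 also holds the TGACG counted above. The classical AP-1 site TGANTCA was found in none of the 8, against 7.81% of promoters, and the CArG box, the site of serum response factor, in none, against 1.63%. TATAAA was found in Fos and in Junb, where it lies at 1 to 6 bases after the start and not in the place of a TATA box, against 13.6% of promoters. Jund and Fosl2 had none of these 5 motifs. General promoter elements were searched too: GGGCGG was found in 6 of the 8 (35.7% of promoters) and CCAAT in 3 (37.4%). A match is a description of letters in this window, and no match says nothing of sites farther away. Atf3, higher in the knockout-labelled library, and Maff, nearly level, are among the carriers of TGACG. A link between these motifs and the levels was not tested.

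Fos was the most abundant AP-1 gene in both libraries and differed most between them. The wild type library held 194 FPKM and the knockout-labelled library 105 FPKM, from about 6145 and 3089 reads. The wild type level was thus 1.85-fold higher, with a counting interval of 1.78 to 1.94. Fos encodes c-Fos, the prototype of the family, which needs a Jun partner to bind DNA. On the scale used for all genes, log2(FPKM + 1) in the knockout-labelled minus that in the wild type library, its difference was −0.88, and 2.19% of the 11985 measured genes had a difference as low or lower. Its place in the order of abundance moved from 344 in the wild type to 693 in the knockout-labelled library.

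Fosb, which encodes FosB and, by splicing, a shorter and longer-lived form of it, stood at 33.0 FPKM in wild type and 22.9 FPKM in knockout-labelled cells. The wild type level was 1.44-fold higher (1.34 to 1.55), from about 1891 and 1224 reads. Fosl2, which encodes FRA2, a Fos protein without the strong activation domain of c-Fos, went the other way. It stood at 4.26 and 5.32 FPKM, a knockout to wild type ratio of 1.25 (1.09 to 1.44) from about 381 and 444 reads. Fosl1, which encodes FRA1, was listed at 0.70 and 0.63 FPKM from about 18 and 15 reads, and a difference was not detectable at this depth (ratio 0.90, 0.420 to 1.88). It overlaps Ccdc85b in RefSeq, and without stated use of strand the reads of that pair cannot be told apart. The Fos family therefore held 2 members lower, 1 higher and 1 near the floor in the knockout-labelled library.

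By mean level Jun came next after Fos. It encodes c-Jun, the main partner of c-Fos and a substrate of JNK. Its level was 136 FPKM against 91.8 FPKM in the knockout-labelled library, from about 6565 and 4121 reads. The wild type level was 1.49-fold higher (1.43 to 1.55), just short of the 1.5-fold used below. Junb was listed at 111 and 92.6 FPKM, with the wild type level 1.19-fold higher (1.13 to 1.26). In the knockout-labelled library Jun and Junb thus stood at nearly the same level, where in the wild type library Jun was above Junb. Jund, the Jun gene that most cells express steadily without a stimulus, was listed at 37.3 and 42.8 FPKM, a knockout to wild type ratio of 1.15 (1.07 to 1.23). Of the 3 Jun genes, the steadily expressed one was the only one higher in the knockout-labelled library.

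The remaining members were scarce. Atf3, a stress-induced partner of Jun proteins that often represses, reached 2.69 FPKM, against 3.76 FPKM in the knockout-labelled library, from about 80 and 104 reads. The ratio was 1.40 with a wide counting interval (1.03 to 1.89), and on the log2(FPKM + 1) scale the difference was 0.37. Maff was listed at 3.24 and 3.11 FPKM from about 95 and 82 reads, a ratio of 0.96 (0.703 to 1.30), so a difference was not detectable at this depth. Atf3, which stress also induces, thus went opposite to Fos and Jun.

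**Figure D1:**
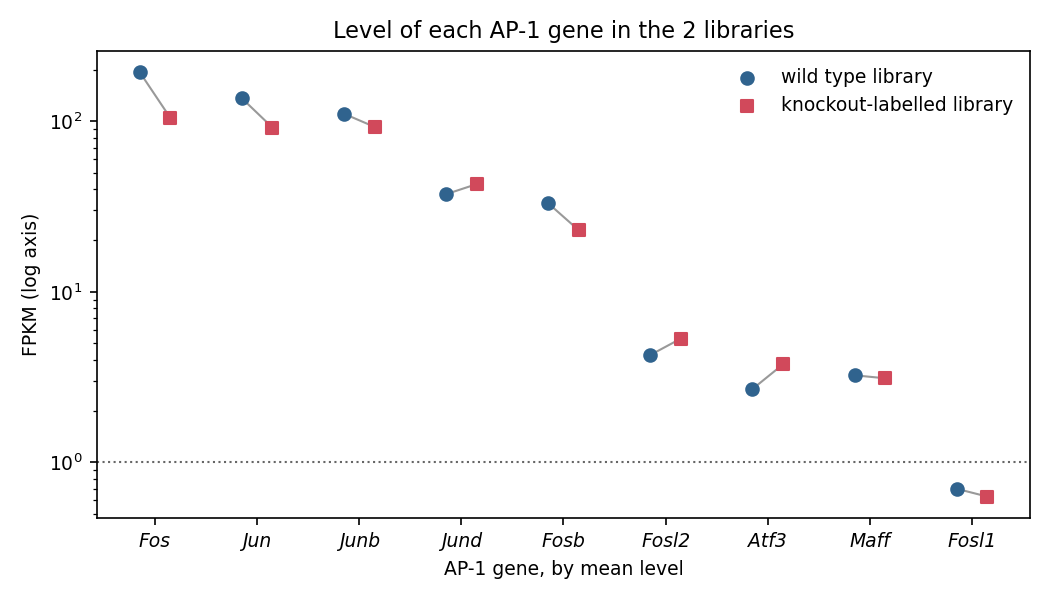
FPKM of each AP-1 gene (log axis) in the wild type library (circles) and the knockout-labelled library (squares), 1 library each, ordered by mean level; the dotted line marks 1 FPKM. Fos, Jun, Junb and Fosb slope down from left to right, while Jund, Fosl2 and Atf3 slope up and Maff and Fosl1 are nearly level.

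By level, the order in the wild type library was Fos, Jun, Junb, Jund, Fosb, Fosl2, Maff, Atf3 and Fosl1. In the knockout-labelled library Junb (92.6 FPKM) and Jun (91.8 FPKM) changed places, as did Atf3 and Maff. Both pairs lie close together, and with 1 library there is no spread over samples to set against the gap. The plot of levels shows 3 tiers: Fos, Jun and Junb at 91.8 FPKM or more in both libraries, Jund and Fosb between 22.9 and 42.8 FPKM, and the other 4 at 5.32 FPKM or less.

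By a rule of size, a gap of 1.5-fold or more on the log2(FPKM + 1) scale, 1 of the 8 measured members (Fos) was lower in the knockout-labelled library and 0 were higher. The background was 6.13% of 11985 genes lower and 6.11% higher, and 1 member of 8 is too few to read against it. All counts at 1.5-fold use this scale, on which low genes reach 1.5-fold less readily than in plain FPKM. By counting error alone the intervals of Fos, Fosb, Jun and Junb lay below a ratio of 1, against 27.1% of all genes, and those of Jund, Fosl2 and Atf3 above 1, against 31.1%. Such an interval is narrow for abundant genes and so marks many of them, and it holds no variation between animals. The median difference of the 8 was −0.15, against 0.01 over all genes tested, with a range from −0.88 to 0.37. It was −0.04 after centring on transcript length, −0.04 without Fos and −0.51 over the 5 members that averaged 5 FPKM or more. In all, 5 of the 8 were lower by any amount, against 49% of all genes. Scaled to equal FPKM sums, the median of all genes became 0.18, the background 3.32% lower and 12.3% higher, and the median of the 8 members 0.018, so its sign turned. The members therefore did not move as a block.

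**Figure D2:**
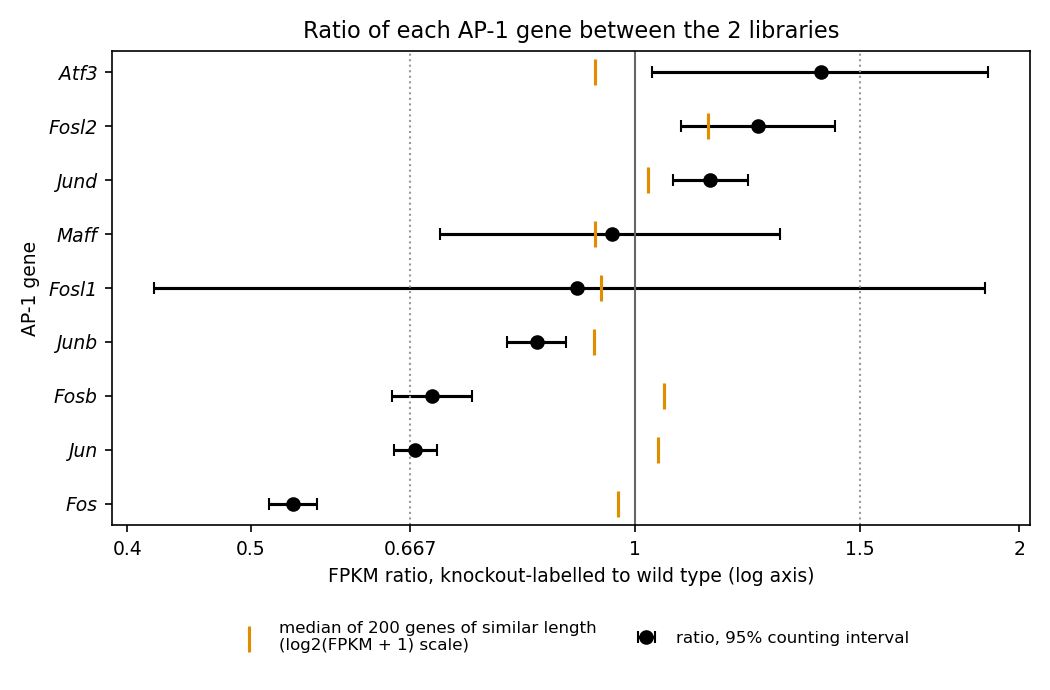
Knockout-labelled to wild type ratio of FPKM (log axis) for each AP-1 gene, with 95% counting intervals that hold counting error only; short vertical bars mark the median of the 200 genes nearest in transcript length, as a fold on the log2(FPKM + 1) scale, and dotted lines mark 1.5-fold. Fos lies farthest left at 0.539, Fosb and Jun lie near the 1.5-fold line at 0.694 and 0.673, and the intervals of Maff and Fosl1 span 1.

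Transcript length moved with the difference across all genes, which bears on how the members are read. Medians by length class were −0.30 below 1000 bases and 0.20 from 4000 bases upward. Fos is listed with 2107 bases, Jun with 3187, Fosb with 3783 and Fosl2 with 5886. Among the 200 genes nearest in length, the median difference was −0.04 around Fos, 0.06 around Jun, 0.08 around Fosb and 0.19 around Fosl2. After that median was subtracted, Fos was at −0.84, Jun at −0.63 and Fosb at −0.59, so 3 members passed 1.5-fold lower. Fosl2 was then at 0.07, little of its excess being left, and Atf3 was at 0.47. The part of transcript length in these differences was not tested.

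**Figure D3:**
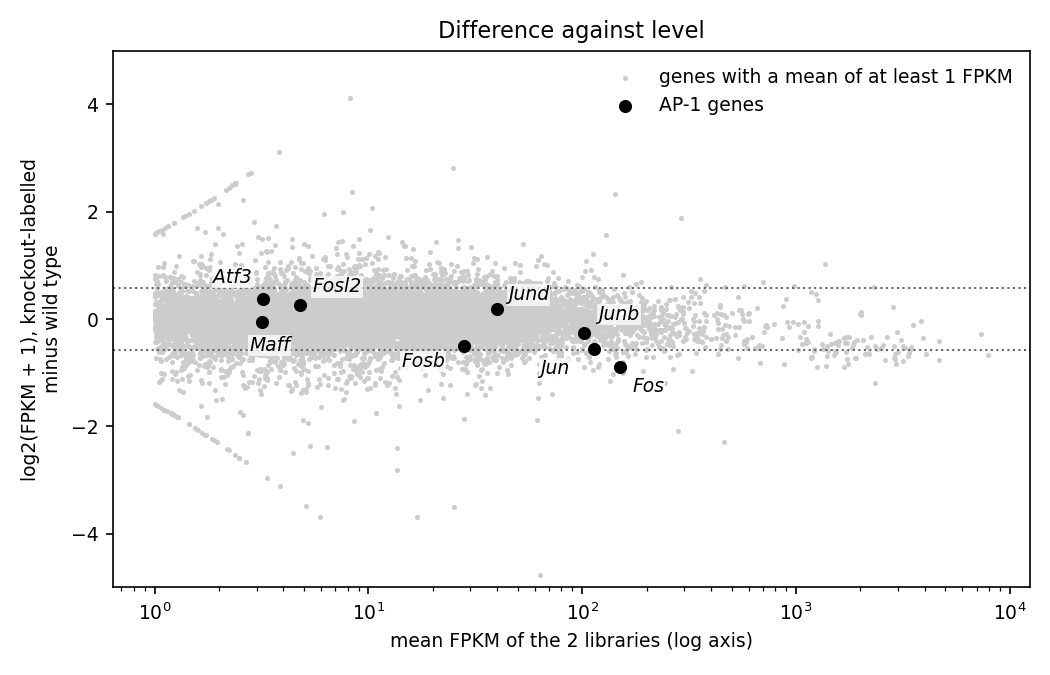
Difference of log2(FPKM + 1), knockout-labelled minus wild type, against mean FPKM (log axis) for 11985 measured genes (grey) and 8 AP-1 genes (black); dotted lines mark 1.5-fold, and the slanting rows at the left are genes not listed in 1 library. Fos lies below the lower dotted line at −0.88, Jun on it at −0.57, and the remaining AP-1 genes inside the lines.

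The make-up of the pool shifted within each family. The 4 Fos genes summed to 232 FPKM in wild type and 134 FPKM in knockout-labelled cells, 1.74-fold higher in the wild type, and the 3 Jun genes to 284 and 227 FPKM, 1.25-fold higher. Fos made up 83.6% of the Fos family sum in wild type cells and 78.4% in knockout-labelled cells, with Fosl2 at 1.83% and 3.98%. Jun made up 48% and 40.4% of the Jun family sum, and Jund 13.1% and 18.8%. Junb was the steadiest part, at 38.9% and 40.8%. These are shares of FPKM and not of protein.

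**Figure D4:**
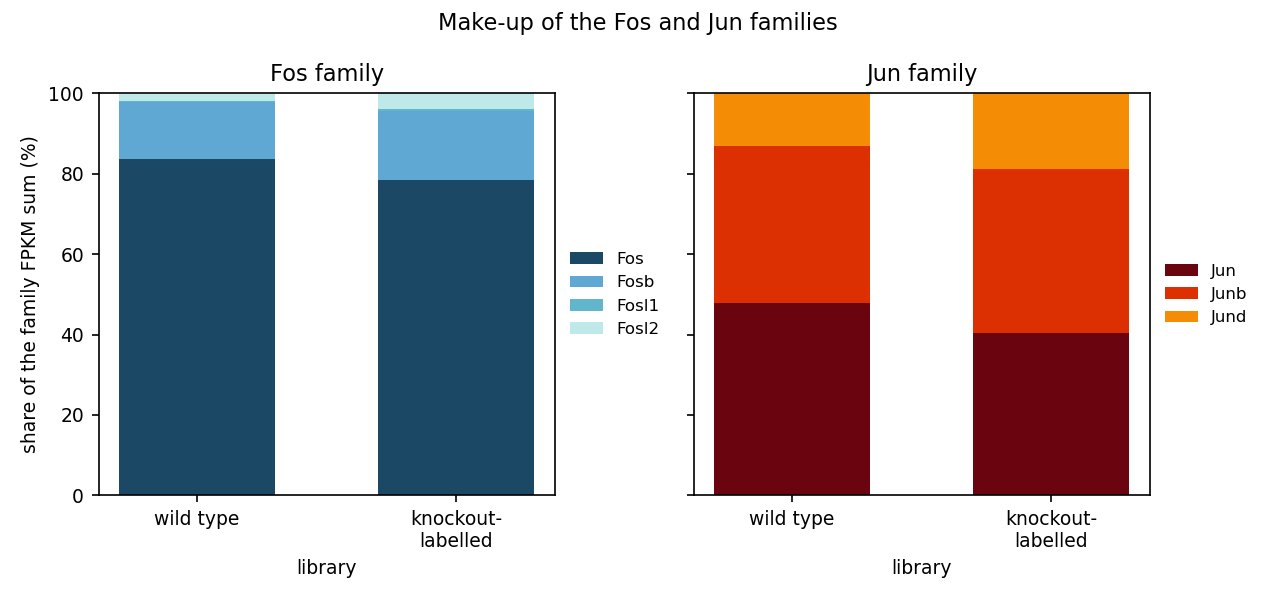
Share of the family FPKM sum (%) held by each Fos gene (left) and each Jun gene (right) in the wild type and the knockout-labelled library, 1 library per bar. Fos takes 83.6% and 78.4% of its family, and Jund grows from 13.1% to 18.8% of the Jun family as Jun goes from 48% to 40.4%.

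Ratios between members inside 1 library do not depend on how the libraries are scaled, and 4 pairs are given here, chosen after their values were seen. The Fos to Jund ratio was 5.21 in wild type and 2.45 in knockout-labelled cells, a 2.12-fold gap (approximate 95% counting interval 1.96 to 2.30). The Jun to Jund ratio was 3.66 and 2.15, a 1.70-fold gap (1.57 to 1.84). Fos was lower against Jun itself too, with ratios of 1.42 and 1.14 and a gap of 1.25-fold (1.18 to 1.32). Against Fosb the Fos ratio was 5.88 and 4.57, a gap of 1.29-fold (1.18 to 1.40). Fos, Fosb and Jun thus differed unequally.

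The members shared features of their transcripts that had no part in choosing them. In the GENCODE M21 transcripts that match the listed RefSeq accessions, Jun, Junb and Jund have 1 exon each, as do 1.94% of 11156 matched and measured genes. All 9 members carry the pentamer ATTTA in the 3′ untranslated region (UTR), against 68.1% of those genes, and 8 of 9 carry the longer TATTTAT, against 28.3%; Junb is the one without. Such AU-rich elements recruit decay factors, among them the product of Zfp36. Fos has 4 pentamers in 815 bases, Jun 4 in 1233 bases and Fosl2 8 in 4653 bases. The 30-base stretches densest in ATTTA are shown for Fos and Jun, which were lower in the knockout-labelled library, and for Fosl2, which was higher, with the pentamers in capitals and positions counted from the first base after the stop codon.
Fos 3′ UTR, bases 642 to 671: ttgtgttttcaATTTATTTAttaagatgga
Jun 3′ UTR, bases 1031 to 1060: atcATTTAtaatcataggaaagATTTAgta
Fosl2 3′ UTR, bases 3675 to 3704: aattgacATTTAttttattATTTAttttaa
In Fos 2 pentamers overlap by 1 letter, while in Jun and Fosl2 they stand apart. Across all genes the median difference was 0.12 for the 3156 with TATTTAT and −0.03 for those without, with transcript length not taken into account. Since 8 of 9 members carry TATTTAT, Jund, Fosl2 and Atf3 among them, its presence could not separate lower members from higher ones. The part of these elements in the differences was not tested.

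The other immediate early genes of a list of 30 were examined beside the AP-1 genes. Among the 27 measured ones the knockout-labelled library was lower by 1.5-fold or more at 10 and higher at 0, and the median was −0.44. Over all measured genes 6.13% were lower and 6.11% higher by that rule. The 4 most abundant were Myc (169 and 175 FPKM), which drives growth, Zfp36 (207 and 103 FPKM), whose product drives mRNA decay, the zinc finger factor gene Egr1 (186 and 83.0 FPKM) and Ier2 (148 and 76.2 FPKM). Myc was level between the libraries, whereas Zfp36, Egr1 and Ier2 were lower. The genes whose pair of levels lay nearest to that of Fos, by distance over the 2 libraries on the log2(FPKM + 1) scale, were Zfp36 (distance 0.09), the interferon-induced gene Mndal (0.12; 198 and 113 FPKM) and the ATP synthase gene Atp5g2 (0.13; 180 and 110 FPKM). With only 2 libraries this likeness is a matter of level alone.

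Other leucine zipper genes, the possible partners of AP-1 proteins, went both ways, with more of them higher than lower. In a list of 26, of which 23 were measured, 1 gene was lower and 3 were higher by 1.5-fold or more, and the median was 0.05. The shares over all measured genes were 6.13% lower and 6.11% higher, and these counts are too few to read against them. By any amount 8 were lower and 15 higher, against 49% of all genes lower. By counting intervals 6 were lower and 11 higher, against 27.1% and 31.1% of all genes. The one lower was Batf2 (2.48 and 0.91 FPKM), a Jun partner induced by interferon. Those higher were Jdp2 (17.4 and 31.2 FPKM), which encodes a Jun dimerisation protein that represses AP-1 sites, Atf1 (25.8 and 40.8 FPKM) and Creb1 (8.20 and 12.8 FPKM), whose products bind cyclic AMP response elements. After length centring Jdp2 was at 0.91, Atf1 at 0.69 and Creb1 at 0.24, the last inside 1.5-fold. The most abundant were Atf4 (184 and 156 FPKM), the erythroid and platelet factor gene Nfe2 (118 and 106 FPKM), the antioxidant factor gene Nfe2l2 (47.5 and 49.1 FPKM) and Batf (41.4 and 34.7 FPKM). Jdp2 stood higher in the library where Jun and Fos stood lower, and a link between them was not tested.

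The kinases and factors that switch AP-1 genes on went both ways. By counting intervals, 3 of 20 measured genes of the ERK, JNK and p38 cascades were lower and 10 higher, against 27.1% and 31.1% of all genes. The median was 0.19. By the 1.5-fold rule 0 were lower and 2 higher, against 6.13% and 6.11% of all measured genes. The 2 were Rps6ka3 (17.2 and 35.0 FPKM), which encodes the ERK-activated kinase RSK2, and Mapkapk2 (59.6 and 90.5 FPKM), a kinase downstream of p38. The most abundant of this list were Mapkapk2 and Rps6ka1 (64 and 70.8 FPKM). After them came Mapkapk3 (47.8 and 60.1 FPKM) and the p38 alpha gene Mapk14 (48.2 and 47.6 FPKM). Serum response factor and its cofactors, 6 genes in all, were within 1.5-fold on the log2(FPKM + 1) scale, 3 of them below 0 and 3 above, with a median of 0.08 that became −0.11 after length centring. Srf was listed at 10.5 and 15.8 FPKM, a plain ratio of 1.51. The cofactor gene Mrtfa was listed at 26.1 and 21.9 FPKM, Elk3 at 24.8 and 21.4 FPKM and Elk4 at 9.21 and 10.8 FPKM. mRNA levels of kinases do not show their activity.

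Genes of AP-1 protein turnover, 8 in all, were within 1.5-fold on the log2(FPKM + 1) scale, with a median of 0.22 that became 0.08 after length centring. In plain FPKM 2 of them were past 1.5-fold higher, Cdc34 at a ratio of 1.51 and Fbxw7 at 1.57, the latter named after its value was seen. The ubiquitin ligase gene Nedd4 was listed at 66.9 and 64.3 FPKM, the Jun-binding COP9 signalosome subunit gene Cops5 at 52.9 and 54.8 FPKM and Cdc34 at 24.9 and 37.6 FPKM. Genes widely described as AP-1 targets went both ways. In a list of 29, of which 21 were measured, 3 were lower and 8 higher by 1.5-fold or more, against 6.13% and 6.11% of all measured genes. The list median was 0.23, or 0.12 after length centring. The 4 most abundant were Vim (323 and 287 FPKM), Tgfb1 (173 and 203 FPKM), Dnmt1 (125 and 150 FPKM) and Ezr (97.1 and 99.5 FPKM), all within 1.5-fold. The 3 lower were the cytokine gene Tnf (6.16 and 2.83 FPKM), Spp1 (4.24 and 2.46 FPKM) and Nqo1 (2.76 and 1.35 FPKM). The 8 higher included Fn1 (10.8 and 30.8 FPKM), which had the largest difference of the list and was named after its value was seen. Many other factors act on these genes.

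**Figure D5:**
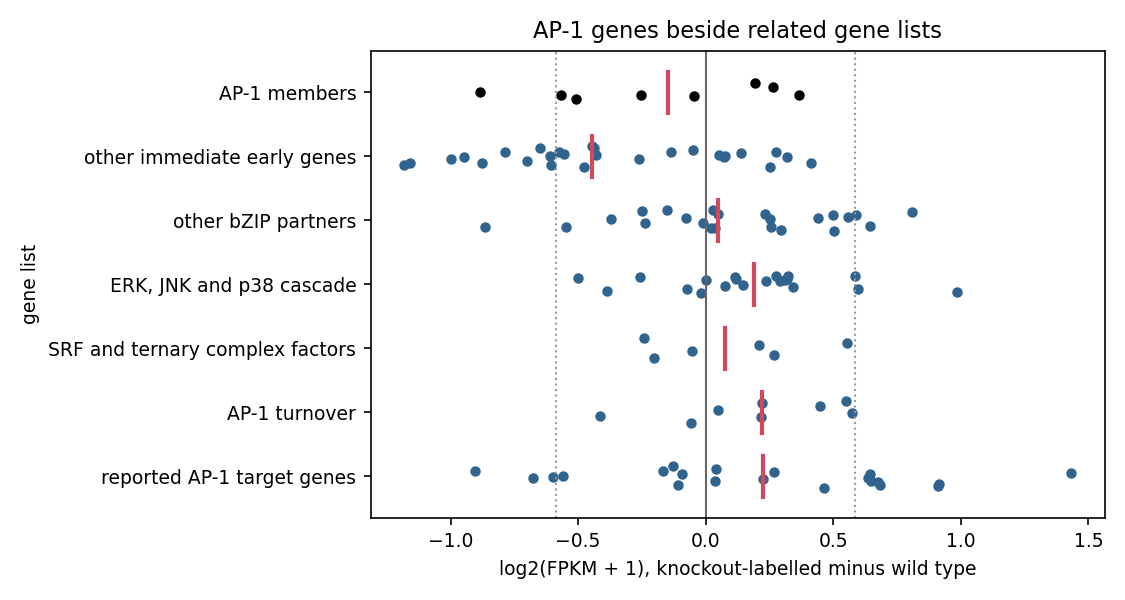
Difference of log2(FPKM + 1), knockout-labelled minus wild type, for each measured gene in 7 lists, 1 point per gene; red bars are list medians and dotted lines mark 1.5-fold. The AP-1 genes spread from −0.88 to 0.37 around a median of −0.15, the other immediate early genes lie mostly to the left with a median of −0.44, and the remaining lists have medians between 0.05 and 0.23.

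Markers of several other cell types differed between the libraries beside the AP-1 genes. At 1.5-fold the background for the counts below was 6.13% of measured genes lower and 6.11% higher. Neutrophil lineage markers (9 of 15 higher by 1.5-fold or more, 0 lower) summed to 8670 FPKM in wild type and 12081 FPKM in knockout-labelled cells. Monocyte markers (3 of 10 higher) summed to 741 and 861 FPKM. Neutrophil markers thus took the most FPKM of these lists in both libraries. B cell markers (8 of 9 lower) summed to 131 and 59.8 FPKM, dendritic cell markers (8 of 10 lower) to 569 and 333 FPKM, erythroid markers (5 of 9 lower) to 1493 and 451 FPKM, and T cell markers (3 of 7 lower) to 45.4 and 35.9 FPKM. Endothelial markers (1 of 3 lower) summed to 70.9 and 54.6 FPKM and stromal markers (1 of 2 lower) to 29.3 and 19.2 FPKM. Markers that passed 1.5-fold were thus all higher in the neutrophil and monocyte lists and all lower in the other 6. Of 12 stem cell genes, which summed to 279 and 215 FPKM, 3 were lower and 1 higher. None of the 84 markers was at 0 in either library. The part of cell make-up in the AP-1 differences was not tested.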

How the data were processed

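FPKM values of 2 libraries (1 per genotype) were used as deposited. They were made by the authors, and the submitters' processing notes name HISAT, HISAT2, RSEM and mm9, with versions, filters and use of strand not given in the sources used here. Genes absent from a file were taken as 0. Symbols came from RefSeq on GRCm38 (17169 of 17216 identifiers matched). Differences were log2(FPKM + 1) in the knockout-labelled minus the wild type library, which understates changes of low genes. Genes averaging 1 FPKM or more, called measured, were counted at 1.5-fold. No test was possible.

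Reads were estimated from the step between low FPKM values of transcripts of 300 to 1500 bases. A whole read was met to within 0.15 by 90.0% and 89.5% of 607 and 543 values, after the step and a length offset were chosen to fit these same values. Exact conditional 95% intervals used the rounded reads, and those of ratios between members used a normal approximation on the log scale. The script was tested on simulated data. Motifs were searched on both strands.

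Members and lists were chosen with earlier results of these data known. Named genes were all members, up to 4 of each list by mean FPKM, and members past 1.5-fold where 5 or fewer passed in a direction; 1 gene so named is not reported here. Alternatives covered pseudocount, filter, scaling, length centring and fold. Tools were scipy 1.17.1, numpy 2.4.6, matplotlib 3.10.9 and pandas 2.3.3, run in Python 3.11.15.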

Additional observations from a re-analysis of the deposited data

How the results depend on the processing

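Over 7 alternatives (pseudocounts of 0.1 and 5, no pseudocount, 3 scalings and centring on length), Fos, Fosb, Jun and Junb were lower and Jund, Fosl2 and Atf3 higher in the knockout-labelled library each time, while Maff and Fosl1 changed sign in 2 of 7. Fos ranged from −0.91 to −0.70, Fosb from −0.59 to −0.33, Jun from −0.63 to −0.38 and Junb from −0.28 to −0.07. With equal FPKM sums the median of all genes moved to 0.18, the background became 3.32% lower and 12.3% higher, and the member median became 0.018, so its sign turned. Relative to all genes it was −0.16 with and without that scaling.

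The count of 1 member at least 1.5-fold lower became 2 with equal upper quartiles, 3 after length centring, 0 at 2-fold and 0 without Fos. The median of −0.15 became −0.044 after length centring and −0.51 over the 5 members that averaged 5 FPKM or more. Scaling to an equal median ratio left every value as it was, since the median ratio over genes in both files was already 1. No paired analysis was possible because each genotype has 1 library. The 2 added alternatives, no pseudocount and leaving out Fos, were chosen after seeing the data. Depth limited Fosl1 and Maff, and the spread between animals was not measured.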
